A study of Sus scrofa with 6 samples.

Results

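The kainate and delta families of glutamate receptors were followed in the cerebral cortex of pigs with and without a maternally inherited UBE3A deletion. The genes were GRIK1, GRIK2, GRIK3, GRIK4 and GRIK5, which encode the kainate receptor subunits, and GRID1, which encodes a delta receptor. They were picked by gene symbol, 6 of the 28965 genes in the tables, and all 6 were among the 14458 genes with enough reads to be tested. Bulk RNA sequencing of polyadenylated RNA covered 6 male pigs aged 140 days, 3 wildtype and 3 with a deletion of UBE3A on the copy inherited from the mother, with 1 library per animal. UBE3A encodes a ubiquitin ligase. Neurons use mainly the maternal copy of the gene, and people who lack it have Angelman syndrome. The deletion was carried in the whole animal and is not limited to a cell type by any label, and no source used here names the part of the gene that is missing.

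Kainate receptors are glutamate-gated cation channels assembled from several subunits that sit on both sides of the synapse, where they shape transmitter release and slow excitatory currents. The products of GRIK1, GRIK2 and GRIK3 can form channels by themselves, whereas those of GRIK4 and GRIK5 bind kainate with high affinity but need a partner from the first group to form a channel. The delta receptor encoded by GRID1 resembles these channels in sequence, is not opened by glutamate in the usual way, and links postsynaptic membranes to presynaptic neurexins through secreted cerebellins.

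Total reads assigned to exons ranged from 19796762 to 28126173 per library. UBE3A itself stood at 91.0 ± 2.91 CPM (counts scaled by TMM and library size, mean ± SD, n = 3) in the wildtype animals and at 9.07 ± 2.26 CPM (n = 3) in the deletion animals without overlap, so all 6 libraries matched their genotype labels. It was the 1 gene of the table that edgeR's quasi-likelihood test called at an adjusted p of 0.05, which is 0.00692% of the tested genes. Marker genes were set beside the label of cortex. The 8 excitatory neuron markers summed to between 1440 and 1704 CPM in wildtype and between 1350 and 1534 CPM in deletion libraries. Most of that sum was SLC17A7, at 915 to 1245 CPM. The sum therefore rests mainly on 1 gene, and no library of another region was compared, so it cannot settle the region. The 5 tested markers of cerebellum, striatum, choroid plexus and hippocampus summed to at most 44.0 CPM, and TDO2 was at 0 reads. Among those 5, the choroid plexus gene TTR stood apart in deletion replicate 1 at 17.2 CPM, against 0.619 to 1.51 CPM in the other 5 libraries, and the striatal receptor gene DRD1 averaged 19.1 CPM in wildtype and 27.2 CPM in deletion (overlapping groups).

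GRIK5 carried the largest share of kainate receptor transcripts in all 6 libraries. Levels per unit of gene length are given as TPM, transcripts scaled to a fixed sum per library, and the values of a group are in the order of replicates 1 to 3. GRIK5 measured 95.2, 86.4 and 68.7 TPM in the wildtype animals and 67.0, 50.2 and 55.5 TPM in the deletion animals. It exceeded every other kainate or delta member in each library, and its lowest library lay above the highest library of each of them. GRID1 came next, with 42.1, 39.8 and 36.5 TPM in the wildtype animals and 30.5, 33.7 and 32.97 TPM in the deletion animals. The TPM ratio of GRIK5 to GRID1 lay between 1.49 and 2.26 over the 6 libraries.

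The other kainate subunits lay close together and their order was less fixed. GRIK1, a channel-forming subunit, measured 29.1, 11.5 and 19.6 TPM in the wildtype animals and 27.1, 19.1 and 14.6 TPM in the deletion animals. GRID1 was above GRIK1 in 6 of 6 libraries. GRIK3, another channel-forming subunit, measured 16.4, 25.0 and 14.6 TPM in the wildtype animals and 16.4, 10.6 and 16.2 TPM in the deletion animals. The ranges of GRIK1 and GRIK3 overlapped, and GRIK1 was the higher of the pair in 4 of 6 libraries. The GRIK1 to GRIK3 ratio fell to 0.461 in wildtype replicate 2 and to 0.902 in deletion replicate 3 and lay between 1.34 and 1.80 in the other 4 libraries. GRIK2, the third channel-forming subunit, lay between 11.3 and 16.7 TPM, and GRIK4, which needs a channel-forming partner, between 8.56 and 16.8 TPM. Each of these neighbours in the order, GRIK3 over GRIK2 and GRIK2 over GRIK4, kept its order in 5 of 6 libraries, and their ranges overlapped.

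**Figure D1:**
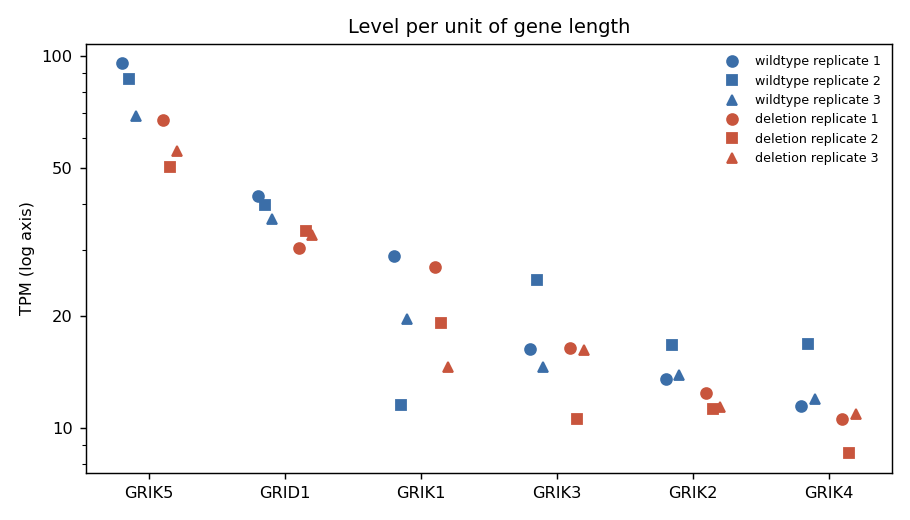
TPM on a log axis for each gene, ordered by mean level, with 1 symbol per library (blue wildtype, red deletion, symbol shape by replicate). GRIK5 lies between 50.2 and 95.2 TPM, above GRID1 in every library, while GRIK1, GRIK3, GRIK2 and GRIK4 overlap.

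In the deletion cortex GRIK5 and GRIK2 were the members whose libraries lay entirely below wildtype in CPM. None of the 6 genes passed the test. edgeR called 0 of 6 members at an adjusted p of 0.05 in either direction, against a background of 0.00692% of all tested genes. At an unadjusted p under 0.05 there was 1 member, GRIK5, where 7.23% of all tested genes reached that p. DESeq2 and limma-voom also called 0 members. The log2 fold change of deletion over wildtype was below 0 in 5 of 6 members, where 49.5% of all tested genes were below 0. The median over the members was -0.22, and over all tested genes it was 0.00 on the log2 scale. Groups that did not overlap were found in 2 of 6 members, both lower in deletion, where 13.9% of all tested genes lay apart in either direction. With 6 genes such a count rests on single genes, which are described in turn. In bulk tissue, fewer cells of a type and less RNA per cell cannot be told apart.

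**Figure D2:**
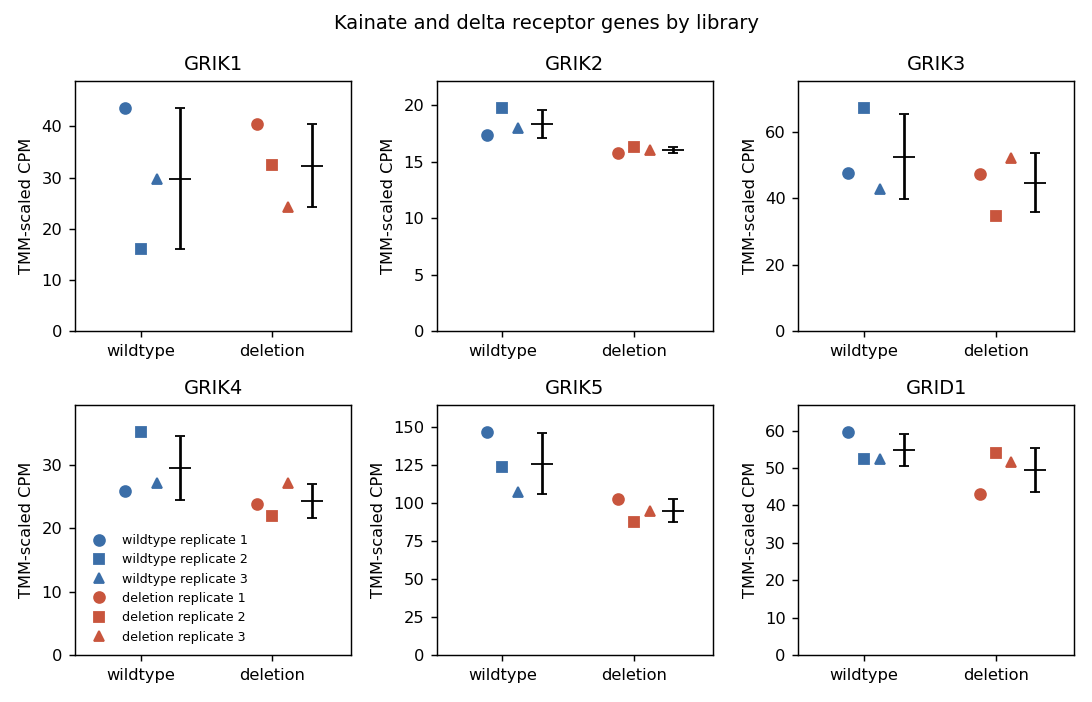
TMM-scaled CPM of each gene, 1 panel per gene with its own axis from 0, with 1 symbol per library and black bars for the group mean ± SD (n = 3). The groups are apart for GRIK2 and GRIK5 and overlap for GRIK1, GRIK3, GRIK4 and GRID1.

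GRIK5, the high-affinity subunit and the most abundant member, measured 147, 124 and 107 CPM in the wildtype animals and 103, 87.7 and 94.6 CPM in the deletion animals. The highest deletion library lay just under the lowest wildtype library. The group means were 126 ± 20.1 CPM (SD, n = 3) and 94.96 ± 7.45 CPM (SD, n = 3), and the deletion level was 75.4% of wildtype with a 95% interval of 61.5% to 92.5%. edgeR gave a log2 fold change of -0.41 (SE 0.13, unadjusted p = 0.0126, adjusted p = 0.683), so GRIK5 did not pass over all genes. Over the 17 alternative settings its adjusted p ranged from 0.223 to 0.990. Without wildtype replicate 1, the highest library, the log2 fold change was -0.28 with an unadjusted edgeR p of 0.0513. The direction was the same within each leading part of the animal number: for number 14 (1 animal per group) the deletion level was 69.7% of wildtype, and for number 15 (2 per group) it was 79.1%. In the authors' deposited table GRIK5 has a fold change of -1.32 with an adjusted p of 0.702.

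GRIK2, which encodes a channel-forming subunit whose transcript is edited by adenosine deaminases in mammals, was the least variable member. It measured 17.4, 19.8 and 17.96 CPM in the wildtype animals and 15.7, 16.3 and 16.1 CPM in the deletion animals, so all deletion libraries were below all wildtype libraries by a small step. The mean was 18.4 ± 1.25 CPM for wildtype and 16.1 ± 0.295 CPM for deletion (SD, n = 3). The log2 fold change was -0.20 (SE 0.11, edgeR adjusted p = 0.700), and the interval ran from 73.3% to 104% of wildtype. Each library held between 343 and 575 GRIK2 reads, the fewest of the members in 5 of 6 libraries. The within-group SD of GRIK2 on the log2 scale was 0.069, and 5.84% of the tested genes had a smaller one.

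GRIK4, the other subunit that needs a channel-forming partner, measured 25.9, 35.2 and 27.2 CPM in the wildtype animals and 23.8, 21.8 and 27.2 CPM in the deletion animals. Deletion replicate 3 reached the wildtype range, and wildtype replicate 2 stood above all others. The log2 fold change was -0.28 (SE 0.15, edgeR adjusted p = 0.693), with an interval of 65.0% to 104% of wildtype. Without wildtype replicate 2 it was -0.13.

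GRIK3 showed the same high library more strongly. It measured 47.6, 67.3 and 42.9 CPM in the wildtype animals and 47.4, 34.8 and 52.1 CPM in the deletion animals, and the groups overlapped. The log2 fold change of -0.23 (SE 0.20, edgeR adjusted p = 0.771) had an interval of 61.2% to 118% of wildtype. It came to -0.02 without wildtype replicate 2 and to -0.08 without deletion replicate 2, so these 2 libraries set its size.

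GRIK1, known in rodents from cortical interneurons, was the member with the widest spread and the only one above 0. Its levels were 43.6, 16.0 and 29.7 CPM in the wildtype animals and 40.4, 32.4 and 24.2 CPM in the deletion animals. Wildtype replicate 2, which was highest for GRIK2, GRIK3 and GRIK4, was lowest for GRIK1. The within-group SD on the log2 scale was 0.567, and 95.8% of the tested genes had a smaller one. The log2 fold change was 0.12 (SE 0.35, edgeR adjusted p = 0.939), and the interval ran from 61.2% to 194% of wildtype, which holds a rise and a fall. Without wildtype replicate 2 the log2 fold change was -0.18 and without deletion replicate 1 it was -0.07, so the direction of GRIK1 rests on single libraries.

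GRID1, the delta receptor gene, measured 59.8, 52.3 and 52.3 CPM in the wildtype animals and 43.0, 54.2 and 51.7 CPM in the deletion animals. Deletion replicate 1 stood below the rest, while the other deletion libraries were within or close to the wildtype range. Its log2 fold change was -0.14 (SE 0.12, edgeR adjusted p = 0.751), with an interval of 75.1% to 109% of wildtype. By animal number the difference in CPM stood in number 14, where the deletion level was 71.8% of wildtype (1 animal per group). For number 15 (2 per group) it was 101%. Without deletion replicate 1, which is also the library of high TTR, the log2 fold change of GRID1 was -0.05. The part of that library's makeup in the result was not tested. The overlap of the groups depends on the scale. In TPM every deletion library of GRID1 was below every wildtype library, also among animals numbered 15. Its log2 fold change by limma on log2 TPM was -0.28, where the median of all tested genes was -0.13.

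The makeup of the kainate family was compared as the share of each subunit in the summed TPM of GRIK1 to GRIK5, a measure that does not depend on scaling between libraries. GRIK5 made up 57.5%, 55.3% and 53.3% of the sum in the wildtype animals and 50.2%, 50.4% and 51.1% in the deletion animals. Every deletion library was below every wildtype library, with means of 55.4% ± 2.07 (SD, n = 3) and 50.5% ± 0.497 (SD, n = 3). An exact two-sided permutation test gave p = 0.1, the smallest that 3 against 3 animals allow, and 0.5 after Benjamini-Hochberg adjustment over the 5 shares, so the difference could not pass at this sample size. GRIK4 and GRIK5 together, the subunits that need a partner, took 64.4%, 66.0% and 62.6% in wildtype and 58.1%, 58.9% and 61.1% in deletion libraries (exact two-sided permutation p = 0.1). GRIK5 makes up most of that pair, so these 2 values are not separate results.

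GRIK1 took 17.5%, 7.36% and 15.2% of the sum in the wildtype animals and 20.3%, 19.1% and 13.5% in the deletion animals, with overlapping groups (exact permutation p = 0.4). The difference of means was 4.26 percentage points and came to 1.25 without wildtype replicate 2. GRIK2 averaged 9.89% ± 1.46 and 10.4% ± 1.019, GRIK3 12.4% ± 3.17 and 12.6% ± 2.18, and GRIK4 8.98% ± 1.94 and 8.85% ± 1.07 (wildtype and deletion, SD, n = 3). The groups overlapped in each of these 3 genes. The summed TPM of the 5 genes was 166, 156 and 129 in the wildtype animals and 134, 99.8 and 109 in the deletion animals, and deletion replicate 1 lay inside the wildtype range. On the TPM scale the median log2 fold change of all tested genes was -0.13, so TPM sums carry that shift while shares do not.

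**Figure D3:**
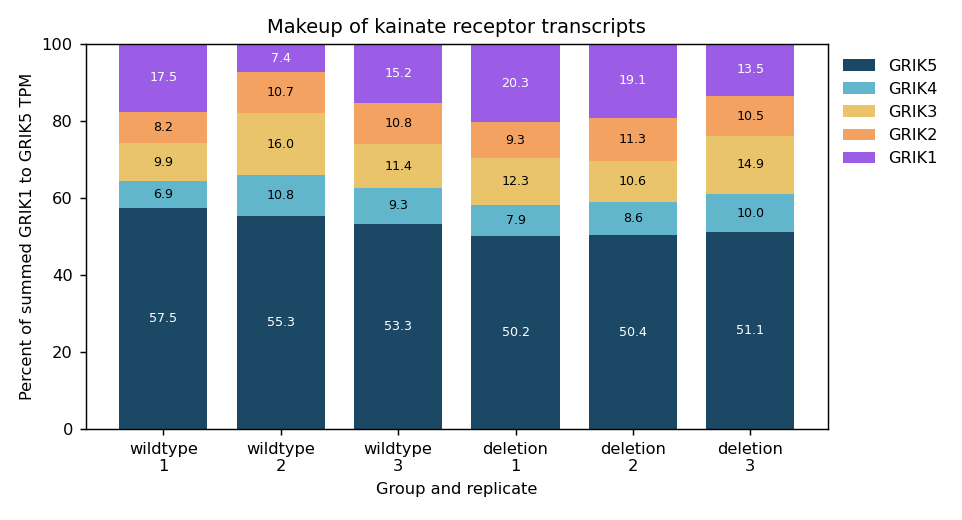
Stacked bars from 0 to 100%, 1 per library, give each subunit's percent of the summed TPM of GRIK1 to GRIK5. GRIK5 stands between 53.3% and 57.5% in wildtype and between 50.2% and 51.1% in deletion libraries, and GRIK1 drops to 7.36% in wildtype replicate 2.

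Auxiliary subunits of kainate receptors did not pass either. NETO1 and NETO2 encode transmembrane proteins that slow the closing of kainate receptor channels. NETO1 measured 24.8, 33.04 and 25.9 CPM in the wildtype animals and 27.2, 19.6 and 20.1 CPM in the deletion animals (log2 fold change -0.32, SE 0.17, edgeR adjusted p = 0.687), and deletion replicate 1 was inside the wildtype range. NETO2 measured 60.9 ± 4.13 CPM and 62.5 ± 5.31 CPM (SD, n = 3), with a log2 fold change of 0.04 and an interval of -0.20 to 0.27.

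Of 18 genes for proteins that bind, place or turn over kainate receptors, 17 were tested and 0 passed edgeR over all genes. An unadjusted edgeR p under 0.05 was found in 2 of the 17, where 7.23% of all tested genes reached it. The median log2 fold change was 0.01, with 8 below 0 and 9 above. DLG3, a postsynaptic scaffold protein, measured 56.7, 56.3 and 47.8 CPM in the wildtype animals and 51.1, 31.2 and 32.7 CPM in the deletion animals (log2 fold change -0.48, edgeR adjusted p = 0.683). KLHL24, a kelch-family protein that binds the GRIK2 product in rodents, measured 27.3 ± 1.504 CPM in the wildtype animals and 31.9 ± 0.02 CPM in the deletion animals (SD, n = 3), with the groups apart (log2 fold change 0.23, edgeR adjusted p = 0.683). Of the 3 tested adenosine deaminase genes of RNA editing 0 passed edgeR, and their median log2 fold change of -0.12 turned to 0.022 without wildtype replicate 1. ADARB1, the editing enzyme with the highest level of the 3 in TPM, measured 142 ± 15.2 and 142 ± 8.49 CPM (wildtype and deletion, SD, n = 3), a log2 fold change of -0.0037. ADAR measured 90.6 ± 2.54 and 83.5 ± 2.20 CPM (SD, n = 3) with the groups apart, and ADARB2, a family member without known editing activity, stood at a log2 fold change of -0.14.

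Among genes that work with delta receptors, 6 of 8 tested had negative log2 fold changes, with a median of -0.21, and 0 passed edgeR. Neurexins are presynaptic adhesion proteins. NRXN3 measured 83.7, 92.5 and 72.2 CPM in the wildtype animals and 79.6, 44.9 and 50.2 CPM in the deletion animals (log2 fold change -0.51, edgeR adjusted p = 0.683). NRXN2 measured 67.8, 75.6 and 62.8 CPM against 71.6, 32.7 and 49.6 CPM (log2 fold change -0.42). In both genes deletion replicate 1 lay in the wildtype range while the other deletion libraries lay below it. Over the whole libraries deletion replicate 1 also differed more from replicates 2 and 3 than those did from each other. The chi-square per degree of freedom of the read counts was 52.4 and 29.0, against 16.6. The part of this library difference in NRXN2 and NRXN3 was not tested. The cerebellins CBLN2 and CBLN4, which bridge neurexins and delta receptors, had log2 fold changes of -0.07 and -0.06, and CBLN1 reached 14.6 CPM in wildtype replicate 2 and lay between 2.26 and 4.21 CPM in the other 5 libraries.

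**Figure D4:**
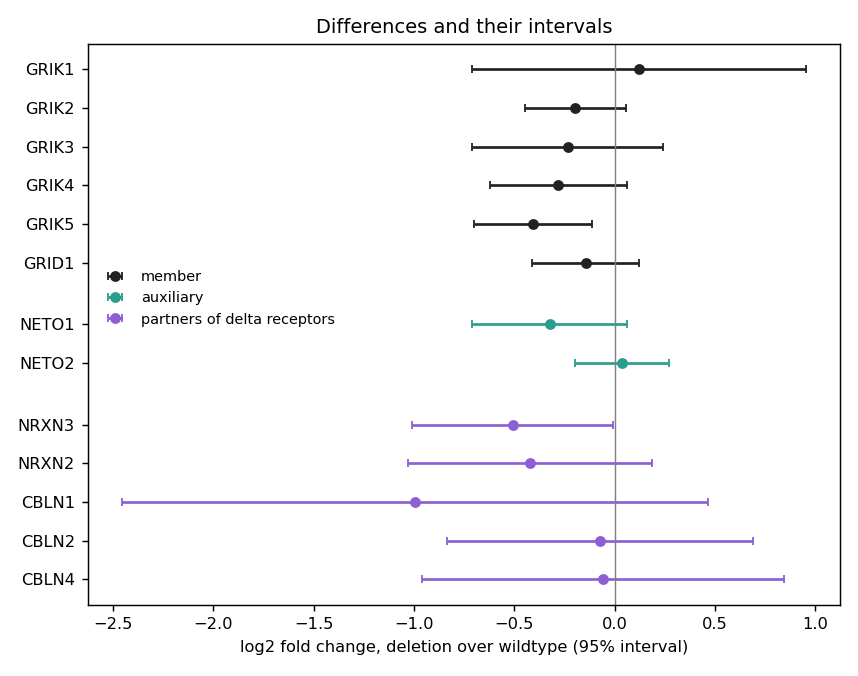
log2 fold change of deletion over wildtype with its 95% interval from edgeR for the 6 members (black), the auxiliary subunits (green) and partner genes of delta receptors (purple). The intervals of GRIK5 and NRXN3 lie below 0 before adjustment, and all others shown include 0.

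For comparison, of 9 tested AMPA and NMDA receptor genes 8 were below 0 with a median of -0.13, and the lowest p values were those of the NMDA receptor subunits GRIN3A (log2 fold change -0.38) and GRIN2D (-0.49). All 7 tested metabotropic receptor genes were below 0 with a median of -0.31, with GRM2 at -0.44 and its groups apart. Of 9 tested genes for supply and clearance of glutamate, 7 were below 0 with a median of -0.11. GLUL, the glutamine synthetase of astrocytes, stood at 0.23 with the groups apart, and SLC1A1, a neuronal glutamate transporter, at -0.28. None of these genes passed edgeR over all genes, and no difference between these lists and the kainate and delta members was tested.

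Markers of the cell types in the tissue moved with the groups in part. The mean log2(CPM + 0.5) of the neuron markers was 9.12, 9.02 and 9.04 in the wildtype animals and 8.88, 8.92 and 8.89 in the deletion animals, so the groups were apart by that measure, with 6 of 8 tested markers below 0. The summed level of the same markers ranged from 7123 to 8185 CPM in wildtype and from 6881 to 8833 CPM in deletion, with overlap. Of the 10 inhibitory neuron markers 9 were below 0, with sums from 940 to 1257 CPM and from 781 to 1032 CPM. The mean log2(CPM + 0.5) of these markers overlapped. It was 6.16, 5.80 and 5.97 in the wildtype animals and 5.57, 5.85 and 5.87 in the deletion animals. The groups were apart in 4 of these 10, where 13.9% of all tested genes lay apart in either direction. An unadjusted edgeR p under 0.05 was found in 3, where 7.23% of all tested genes reached it, and 0 passed edgeR. SST, the somatostatin gene of one interneuron class, measured 159, 165 and 159 CPM in the wildtype animals and 78.9, 86.3 and 125 CPM in the deletion animals, which was 59.96% of wildtype (log2 fold change -0.74, edgeR adjusted p = 0.683). GAD2, which encodes an enzyme of GABA synthesis, was at 71.9% of wildtype with the groups apart (log2 fold change -0.48, edgeR adjusted p = 0.683). GAD1 was at 94.2% of wildtype with overlapping groups. PVALB, the parvalbumin gene of another interneuron class, had a log2 fold change of 0.45 with overlapping groups. SST, GAD2, GAD1, PVALB, GFAP, TTR, DRD1 and ADARB1 were named after their values were seen. The part of the markers in the members' values was not tested. Astrocyte markers summed to between 3328 and 4003 CPM in wildtype and between 4082 and 4876 CPM in deletion, with 4 of 6 above 0. Most of each sum was GFAP, which averaged 2177 CPM in wildtype and 2790 CPM in deletion. The groups were apart in 2 of the 6 astrocyte markers, and 2 had an unadjusted edgeR p under 0.05, against the same backgrounds. The mean log2(CPM + 0.5) of the astrocyte markers overlapped. It was 7.84, 7.93 and 7.71 in the wildtype animals and 8.03, 8.02 and 7.84 in the deletion animals. Oligodendrocyte markers, 6 of 6 above 0, summed to between 9879 and 20193 CPM and between 9200 and 23003 CPM. None of the tested markers in these 4 lists was at 0 reads. With the neuron marker mean as a covariate the log2 fold change of GRIK5 was -0.04 (edgeR adjusted p = 0.990) and that of GRID1 0.30, while those of the other members were larger than without it: GRIK1 stood at 1.81, GRIK2 at -0.39, GRIK3 at -0.99 and GRIK4 at -0.89. GRIK1 and GRIK4 had unadjusted edgeR p values of 0.0437 and 0.0367 there, and no member passed the adjusted threshold. That mean itself separates the groups, so the covariate and the genotype cannot be told apart. With the oligodendrocyte marker mean as a covariate GRIK5 stood at -0.44, GRIK3 at -0.37 and GRIK4 at -0.35, with unadjusted edgeR p values of 0.00816, 0.00959 and 0.0208 and none past the adjusted threshold.

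Genes with the most similar profile were ranked by the root-mean-square distance between centred log2 CPM values over the 6 libraries, among 12671 tested genes with a symbol. For GRIK5 the nearest were EFR3B (distance 0.047 on the log2 scale) and WNK2 (0.054). EFR3B measured 152, 118 and 109 CPM in the wildtype animals and 107, 86.1 and 91.7 CPM in the deletion animals. For GRIK2 they were ZNF207 (0.026) and CASC3 (0.031), and for GRID1 CPT1C (0.021) and NEIL1 (0.022). For GRIK4 they were LY6H (0.042) and ATP2B4 (0.058), and for GRIK3 PLIN3 (0.088) and KCTD11 (0.092).

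GRIK1 had no gene as near in distance: its closest were GJB6, the astrocyte gap junction gene for connexin 30, at 0.151 and ARMT1 at 0.161. The distance is not scaled by a member's own spread. GRIK1 had the widest profile, with an SD of 0.474 on the log2 scale, against 0.283 for GRIK3. GJB6 measured 48.7, 23.1 and 40.8 CPM in the wildtype animals and 55.1, 37.3 and 35.5 CPM in the deletion animals, lowest in wildtype replicate 2 as GRIK1 was. Among the members themselves GRIK3 and GRIK4 were the closest pair (distance 0.131), barely ahead of GRIK2 and GRIK4 (0.132). GRIK4 was at rank 31 for GRIK3, while for GRIK4 the ranks were 213 for GRIK3 and 222 for GRIK2. GRIK1 was farthest from GRIK3 (0.693), at rank 11821 of 12671. These distances describe 6 libraries that share their depth and animals and carry no test.

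**Figure D5:**
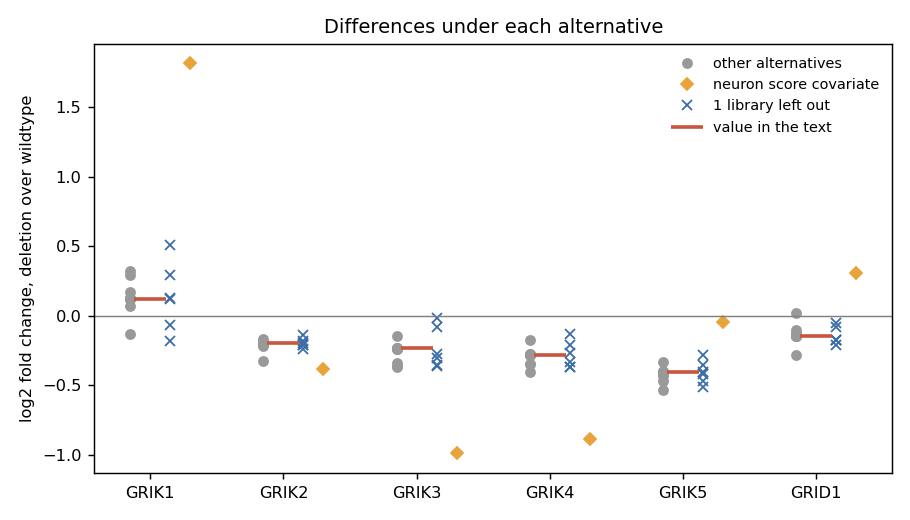
log2 fold change of each member as given in the text (red bar), under the settings that leave out 1 library (crosses), with the neuron marker mean as a covariate (diamonds) and under the other alternatives (grey dots). GRIK2, GRIK3, GRIK4 and GRIK5 stay below 0 throughout, while GRIK1 and GRID1 fall on both sides.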

How the data were processed

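Tissue was frozen and RNA extracted, and stranded polyadenylated-RNA libraries were sequenced as pairs of 150 bases, per the labels' protocols. No source used here names the aligner, counting tool, build or annotation, or says whether counting used strand, so reads of overlapping genes cannot be told apart. The authors deposited exon read counts per gene, per the file headers, which entered every test unchanged with blank cells as 0. They also deposited TPM, used for levels and shares, and RPKM, used in 1 alternative. Their CPM column, treated as a score because its sums differ from the usual scale, was not used. The authors' deposited table gives a signed fold-change score and a p-value and adjusted p-value per gene, by a test that is not stated. Its 6 columns of group summaries were not used.

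Groups came from the genotype labels, and replicate numbers follow accession order and pair no animals. Genes were filtered with filterByExpr, scaled with TMM and tested with edgeR 4.0.16 (robust quasi-likelihood F test without covariates, R 4.3.3), with p-values adjusted by Benjamini-Hochberg over all tested genes. SEs were derived from each log2 fold change and its F statistic. Precision is limited by 3 animals per group and, for GRIK2, by its read number. Intervals cover both. Libraries of a group differed by 14.4 to 52.4 in chi-square per degree of freedom, far beyond sampling noise, and each counts as its own sample. Symbols came from the files for 16246 genes and from the table of gene names for 785 more. Alternatives used DESeq2 1.42.0, limma 3.58.1, other filters, covariates, the leading part of the animal number (14 or 15, unexplained in the labels), log2(TPM + 0.1), and leaving out each library. Members and gene lists were chosen with earlier results of these data known. Named genes were the members, UBE3A, the auxiliary and delta-partner genes, the 2 of lowest p in each other list, and the 2 most similar profiles per member. Some genes that this rule names are left out. Planned work on intron reads and uniquely mapped reads was not run, since total exon reads were used.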

Additional observations from a re-analysis of the deposited data

How the results depend on the processing

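All 6 members stayed short of the adjusted threshold under the 17 alternatives, and GRIK2, GRIK3, GRIK4 and GRIK5 kept a negative log2 fold change in each. GRIK1 reversed with limma-voom (-0.13) and ranged from -0.18 to 0.51 with 1 library left out, and its highest value was 1.81 with the neuron marker covariate. GRID1 reversed among animals numbered 15 (0.021) and with the neuron marker covariate (0.30). The cause was not tested. With that covariate UBE3A measured -3.69 but missed the adjusted threshold, and 0 genes of the table passed. All genes called numbered 19 with DESeq2, 2 without a low-count filter, among animals numbered 15 and with the oligodendrocyte covariate, and 1 to 2 with 1 library left out. DESeq2 called 1 listed gene, SST. Members with an unadjusted p under 0.05 numbered 3 with the oligodendrocyte covariate, 2 with the neuron covariate, 3 on log2 TPM and 0 to 1 with 1 library left out. Members with groups apart numbered 4 on log2 TPM, with GRIK4 and GRID1 beside GRIK2 and GRIK5. On that scale the median log2 fold change of all tested genes was -0.13. The share of all tested genes reaching these marks was not taken under the alternatives. These counts therefore have no background beside them and are not a result about the members.

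The lower share of GRIK5 and of GRIK4 with GRIK5 kept its direction in all 9 alternatives, ranging from -5.83 to -3.76 and from -5.82 to -4.10 percentage points with 1 library left out. With 1 library left out the share difference ranged from 1.25 to 6.35 points for GRIK1, from -0.38 to 1.00 points for GRIK2, from -1.05 to 2.00 for GRIK3 and from -1.16 to 0.76 for GRIK4, and GRIK3 also reversed among animals numbered 15 (-0.89). No paired analysis was possible because the labels give no replicate numbers shared between groups.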
